A study of Homo sapiens with 6 samples.

Results

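The genes described here carry glucose into the cell and break it down to lactate. They are the glucose transporter SLC2A1, the hexokinases HK1 and HK2, the phosphofructokinase PFKP, the regulatory kinases PFKFB3 and PFKFB4, and the lower enzymes PGK1, PGAM1, PKM and LDHA. These 10 genes were picked by symbol, and all 10 were found among the 25969 genes of the deposited files by matching Ensembl identifiers to GENCODE 29 (GRCh38). RNA was sequenced from 3 libraries of VIM-AS1 overexpressed cells, transfected with an overexpression vector, and from 3 libraries of WT cells, transfected with pcDNA3.1; all 6 are labelled as the prostate cancer line LNCaP, derived from a lymph node metastasis. VIM-AS1 is a noncoding RNA transcribed opposite to vimentin, and the series asks how raising it affects gene expression. No label calls the replicates separate cultures, and the p-values therefore reflect variation among 6 libraries that may be technical. The promoter of the vector and the timing of harvest are not given in the sources used here.

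Glycolysis starts when glucose enters through a transporter and is trapped by phosphorylation. Phosphofructokinase commits the sugar to breakdown and is switched on by a signal molecule that the PFKFB enzymes make and remove. The lower enzymes pass the carbon on to pyruvate while making ATP, and lactate dehydrogenase turns pyruvate into lactate. Many tumour lines express particular isozymes of these steps, among them HK2, PKM and LDHA, and several of the genes are known targets of hypoxia-inducible factors and of MYC. In normal prostate epithelium much of the carbon leaves as citrate, and high glycolysis is known from late prostate cancer.

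In every same-numbered pair of libraries all 10 genes were higher with VIM-AS1 overexpression than with pcDNA3.1. HK2 had the largest difference at 2.14 times the control mean, followed by PGAM1 at 1.76 times and PFKFB4 at 1.57 times. PKM, which makes pyruvate, had the smallest difference of the 10. Groups did not overlap for 6 of the 10 genes (HK2, PFKFB3, PFKFB4, PGAM1, PGK1 and LDHA). Over all 20927 genes tested 9.5% had all overexpression libraries above all controls, 10.3% had all of them below, and 26.8% were higher in each same-numbered pair. A positive fold change was seen in 48.0% of tested genes and in 62.7% of those with a mean of at least 100 normalized reads.

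In both groups the third library differed from the first and second, so results are given from a pair of fits. Both used limma on log2(value + 1) of the deposited normalized reads, 1 by group alone and 1 with an added term for the third libraries. The term treats the first and second libraries of a group as alike, yet the first and second controls also stood apart. Chi-square over gene counts, divided by its degrees of freedom, was 7.14 between the first and second overexpression libraries and 41.4 between the first and second controls, while it was 45.5 to 69.2 for pairs that hold replicate 3. That term was chosen with earlier results of these data known, so its p-values and standard errors (SE) may be too small. Below, "rose" and "fell" stand for a Benjamini-Hochberg adjusted p under 0.05 in the fit with the term. In that fit 9 of the 10 genes rose and PKM did not pass, while 11.5% of all tested genes rose, 7.94% fell and 19.4% were called in either direction. Of the 9758 genes with a mean of at least 100 normalized reads, as all 10 of these have, 23.0% rose. The median log2 fold change of the 10 genes was 0.50, against 0.11 over genes with such a mean and -0.02 over all tested genes. In the fit by group alone none of the 10 was called, and 0.0239% of tested genes were (0.0143% higher, 0.00956% lower), with limma adjusted p from 0.080 for HK2 to 0.77 for PKM. At an unadjusted p under 0.05 in that fit, HK2 (0.000269), PGAM1 (0.00429) and PFKFB4 (0.0187) passed, and on the recovered reads DESeq2 called HK2 and PGAM1 by group alone while edgeR called none of the 10. With the replicate number as a block, 9 of the 10 genes were called higher and PKM was not (limma adjusted p = 0.060), while 15.8% of tested genes were called higher and 26.6% in either direction. Without VIM-AS1 replicate 3 the fit with the term called only HK2, without control replicate 3 it called HK2, PFKFB4 and PGAM1, and without VIM-AS1 replicate 2 it called 5 of the 10 (HK1, HK2, PFKP, PFKFB4 and PGAM1). Without VIM-AS1 replicate 1 it called 7, LDHA and SLC2A1 being lost, and without control replicate 1 it called 8, SLC2A1 being lost.

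**Figure D1:**
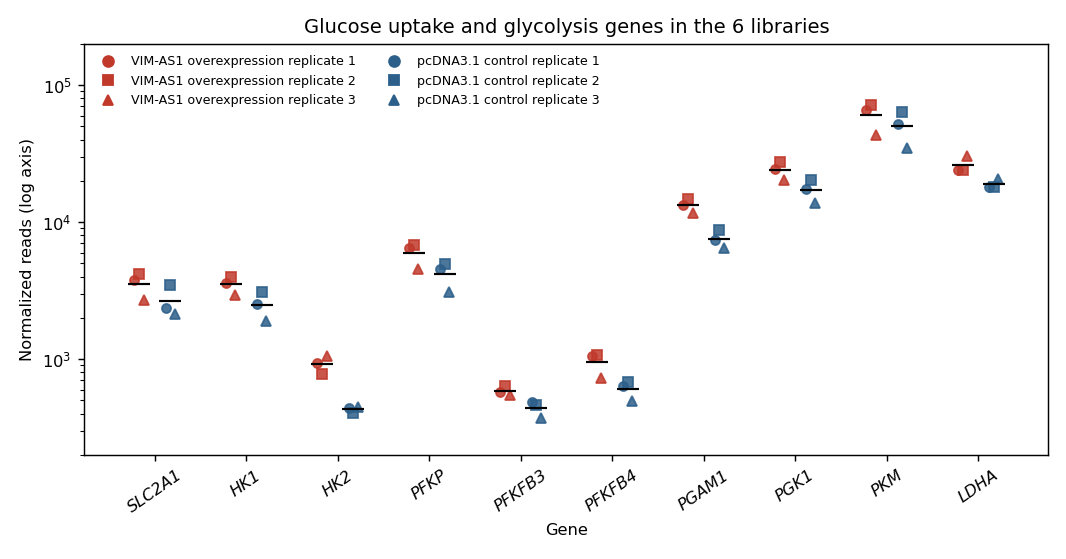
Normalized reads (log axis) of the 10 genes in each of the 6 libraries; circles, squares and triangles are replicates 1, 2 and 3, and black bars are group means of 3 libraries. HK2 lies at 784.8 to 1047 in the overexpression libraries and at 406.8 to 450.2 in the controls. The third libraries sit highest of their group for HK2 and LDHA and lowest for each of the other genes.

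VIM-AS1 itself, the check of the labels, averaged 2326 ± 388 normalized reads in overexpression libraries and 5.13 ± 3.72 in controls (SD, n = 3 each). Libraries held 14762893 to 19889745 recovered reads. The deviations of the third libraries from the rest went with GC content (Spearman rho -0.83 across 13168 genes, which are not independent replicates). The share of mitochondrially encoded reads was 5.57% to 7.06% in overexpression libraries and 8.73% to 14.3% in controls, and its part in the results was not tested. Several markers that define LNCaP were at or near 0. KLK3, which encodes prostate-specific antigen, had 0 reads in each overexpression library, against 2, 0 and 0 in controls. FOLH1, prostate-specific membrane antigen, had 0 in each overexpression library, against 4, 2 and 0, and ACP3, prostatic acid phosphatase, 0 in each, against 3, 0 and 0. Of the 12 luminal markers looked up 8 were matched, and KLK2, TMPRSS2, STEAP2 and TRPM8 were not. Of the matched ones 6 were tested and none was called, while KLK3 and ACP3 did not reach the mean value of 1 needed for testing. HOXB13, KRT8 and KRT18 were present. The summed level of the matched ones, most of it KRT8 and KRT18, was 68070 to 121660 normalized reads in overexpression libraries and 75741 to 138711 in controls. KLK3, FOLH1 and ACP3 thus go against the label, and the cells are called here by their label alone. Of 16 markers of other cell types 14 were matched, with 1 higher (VWF) and 5 lower (TP63, COL1A1, DCN, PDGFRB and SYP) among 10 tested. That is 10% higher and 50% lower, against 11.5% and 7.94% of all tested genes. PTPRC and CD3E were looked up and not matched, and CD68, PECAM1 and LUM were at 0 in all overexpression libraries. The summed level of that list was 1860 to 2666 normalized reads in overexpression libraries and 2998 to 3869 in controls, most of it COL1A1 and PDGFRB, and its part in the results was not tested. In bulk RNA a change in the RNA of each cell and a change in the mix of cells cannot be told apart.

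The sequences just upstream of the genes are shown because all 10 genes were higher in each same-numbered pair and because HIF and MYC are known to bind short motifs in promoters of this pathway. RefSeq (GRCh38.p14) lists 22 transcription starts for the 10 genes, and the 250 bases before each were searched on both strands for CACGTG, the E-box read by MYC and by the MondoA and ChREBP factors, and for ACGTG, a core of hypoxia response elements that lies within every E-box. The E-box was found in 3 of the 22 windows, 13.6%, while 6.34% of the 35116 windows in the whole table hold it. ACGTG was found in 6 of 22, 27.3%, against 18.5% of all windows, and GCGTG, another such core, whose matches can share end bases with the others, in 8 of 22, 36.4%, against 32.2%. The genes have from 1 to 7 windows each, so windows are not independent. HK2, LDHA and PFKFB3 hold the E-box, none of them in all of its windows. The windows of SLC2A1, PKM and PGAM1 hold none of these letters. Capitals mark either of the first 2 motifs on either strand, and both starts of HK2 are given because it had the largest difference.
HK2 upstream window, chr2:74833877-74834126, plus strand: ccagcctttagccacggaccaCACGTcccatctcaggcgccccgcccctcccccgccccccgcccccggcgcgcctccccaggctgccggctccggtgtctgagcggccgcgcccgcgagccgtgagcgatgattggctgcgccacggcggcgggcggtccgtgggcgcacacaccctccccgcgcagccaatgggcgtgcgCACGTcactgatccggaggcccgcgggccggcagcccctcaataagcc
HK2 upstream window, chr2:74834920-74835169, plus strand: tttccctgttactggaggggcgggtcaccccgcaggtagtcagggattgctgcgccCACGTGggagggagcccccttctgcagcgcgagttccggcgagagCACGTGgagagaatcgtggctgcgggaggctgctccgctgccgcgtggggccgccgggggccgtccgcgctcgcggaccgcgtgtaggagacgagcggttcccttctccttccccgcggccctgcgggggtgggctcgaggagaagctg
LDHA upstream window, chr11:18394313-18394562, plus strand: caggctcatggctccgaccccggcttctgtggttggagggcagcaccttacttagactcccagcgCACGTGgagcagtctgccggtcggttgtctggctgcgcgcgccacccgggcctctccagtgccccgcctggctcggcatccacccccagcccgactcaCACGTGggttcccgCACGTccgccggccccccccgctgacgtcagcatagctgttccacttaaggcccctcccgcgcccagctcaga
PGK1 upstream window, chrX:78103998-78104247, plus strand: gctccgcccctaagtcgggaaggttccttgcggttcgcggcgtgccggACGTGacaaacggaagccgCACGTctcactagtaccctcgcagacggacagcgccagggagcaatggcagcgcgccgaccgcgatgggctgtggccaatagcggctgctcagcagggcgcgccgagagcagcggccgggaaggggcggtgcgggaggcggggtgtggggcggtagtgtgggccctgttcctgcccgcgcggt
PGAM1 upstream window, chr10:97427568-97427817, plus strand: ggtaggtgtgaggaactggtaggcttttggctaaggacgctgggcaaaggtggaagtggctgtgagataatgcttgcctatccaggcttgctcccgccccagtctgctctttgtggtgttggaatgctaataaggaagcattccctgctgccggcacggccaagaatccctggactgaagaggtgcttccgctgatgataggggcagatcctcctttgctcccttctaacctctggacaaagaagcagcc
In the second HK2 window the E-boxes begin 194 and 149 bases before the start, and in the LDHA window shown 185 and 87 bases before it. LDHA has a further window, chr11:18396101-18396350, that holds neither CACGTG nor ACGTG. A match describes letters only, and no binding was measured here.

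SLC2A1 encodes GLUT1, the widely expressed glucose transporter (chr1:42925375-42959176, minus strand); its RNA was counted, and uptake itself was not measured. SLC2A1 had 3772, 4186 and 2715 normalized reads in the overexpression libraries, against 2378, 3481 and 2131 in the controls. The groups overlapped, since the second control lay above the third overexpression library. SLC2A1 rose (log2 fold change 0.43 ± 0.12 SE, limma with the third-library term, adjusted p = 0.0192), and passed in 1 of the 6 fits that leave out a library, that without control replicate 2. Without control replicate 1 its log2 fold change was 0.26. Of the other transporters of the SLC2A family SLC2A6, a lysosomal one, rose (1582 ± 469 against 1070 ± 216 normalized reads, SD, n = 3 each), and SLC2A8, an intracellular transporter, rose by 0.39 ± 0.12 on the log2 scale (adjusted p = 0.0238, limma). SLC2A4, the insulin-responsive GLUT4, fell to 44.2 ± 11.8 normalized reads with VIM-AS1 overexpression, against 81.0 ± 18.7 in controls, and its groups did not overlap. SLC2A13, a myo-inositol transporter that is counted in the summed transporter level although it is not a glucose transporter, fell to 124.5 ± 47.6, against 195.7 ± 76.5. The summed transporter level covers SLC2A1, SLC2A3, SLC2A4, SLC2A6, SLC2A8 and SLC2A13. SLC2A10 and SLC2A12 were looked up and not matched, and the rest of the family was not looked up. Per kb of exon, SLC2A1 was the most abundant of the matched transporters at 753.1 reads per kb in overexpression libraries and 563.8 in controls. SLC2A6 came next at 446.9 and 302.2. Its share of the summed transporter level did not separate the groups, at 54.5 ± 1.25% with VIM-AS1 overexpression and 54.4 ± 2.66% in controls (exact permutation test, two-sided, p = 1).

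Hexokinase traps glucose in the cell, and the isozymes differed. HK2, the inducible isozyme that sits on mitochondria in many tumours (chr2:74833981-74893359, plus strand), had 942.9, 784.8 and 1047 normalized reads with VIM-AS1 overexpression, against 442.2, 406.8 and 450.2 with pcDNA3.1. Every overexpression library lay above every control, with little spread among the controls. HK2 rose with a log2 fold change of 1.08 ± 0.11 (SE; limma with the term, adjusted p = 3.81e-06), and the difference was 1.02 over the first and second pairs and 1.22 for the third. It was past 97.5% of all tested genes in fold change and was called with the term whichever library was left out. HK1, the housekeeping hexokinase (chr10:69269984-69401884, plus strand), had 3611, 3998 and 2923 normalized reads against 2510, 3074 and 1890. HK1 rose less, by a log2 fold change of 0.51 ± 0.11 (SE; limma with the term, adjusted p = 0.00230), and its groups overlapped at the third overexpression library and the second control. HKDC1, a further hexokinase, stood at 260.0 ± 12.2 and 247.0 ± 20.9 normalized reads and did not pass. Per kb of exon HK2 stayed below HK1, at 152.5 against 557.6 reads per kb with overexpression and 71.4 against 395.7 in controls. HK2 made up 21.3%, 16.9% and 27.1% of the summed HK1 and HK2 reads per kb in overexpression libraries and 15.5%, 12.1% and 19.8% in controls. The share was higher with VIM-AS1 in each same-numbered pair, but the group means of 21.8 ± 5.11% and 15.8 ± 3.88% overlapped in range (p = 0.2, two-sided, by the exact permutation test, which cannot go below 0.1 with 3 against 3).

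**Figure D2:**
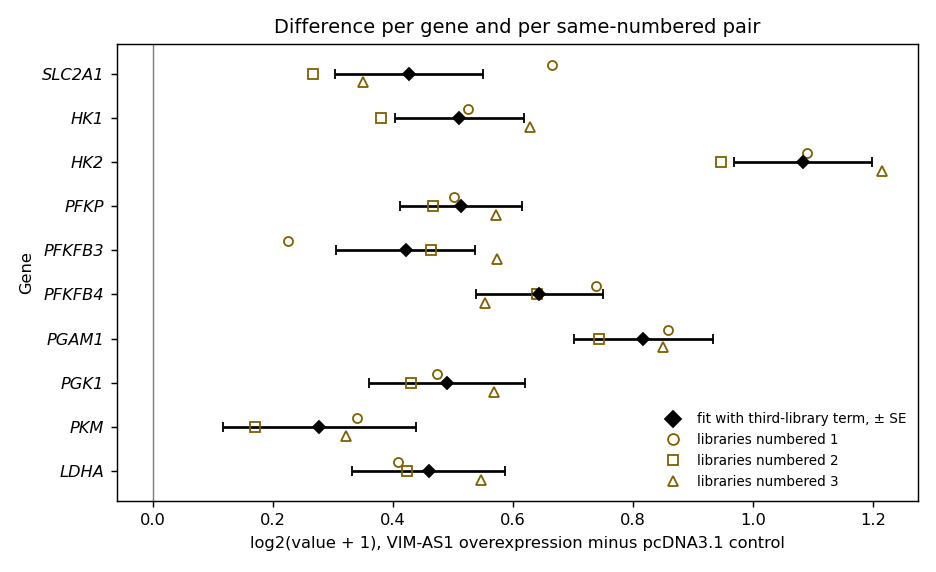
Difference in log2(value + 1), VIM-AS1 overexpression minus pcDNA3.1 control, for each gene; diamonds with bars are the limma fit with the third-library term ± SE, and open circles, squares and triangles are libraries numbered 1, 2 and 3. All 30 pair differences lie above 0, from 0.17 for PKM in the second pair to 1.22 for HK2 in the third.

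The phosphofructokinase step is the committed step of the route. PFKP, the platelet-type isozyme (chr10:3066333-3137712, plus strand), had 6473, 6795 and 4564 normalized reads in overexpression libraries and 4574, 4916 and 3069 in controls. The third library was lowest in both groups, and the groups overlapped. PFKP rose by a log2 fold change of 0.51 ± 0.10 (SE; limma with the term, adjusted p = 0.00143). PFKL, the liver-type isozyme, rose by 0.38 ± 0.11 (adjusted p = 0.0186, limma), and PFKM, the muscle-type isozyme, stood at 2919 ± 213 and 2645 ± 476 normalized reads and did not pass. PFKP made up 56.7%, 54.8% and 53.8% of the reads per kb of these 3 isozymes with VIM-AS1 overexpression and 50.8%, 51.2% and 51.4% with pcDNA3.1. The groups did not overlap in this share and differed by 3.93 percentage points (p = 0.1, two-sided, by the exact permutation test, its minimum here). It was the only isozyme share compared here whose groups did not overlap, and p was not adjusted for the number of shares. Part of the PFKM exons (8.58%) is also exon of SENP1 on the opposite strand, and the library kit is not named as a strand-marking one.

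PFKFB4 and PFKFB3 set the level of the sugar phosphate that activates phosphofructokinase. PFKFB4 (chr3:48517684-48562015, minus strand) had 1060, 1071 and 731.7 normalized reads in overexpression libraries and 635.0, 686.6 and 498.4 in controls. Its lowest overexpression library lay above its highest control, and it rose by 0.64 ± 0.11 on the log2 scale (SE; limma with the term, adjusted p = 0.000275). PFKFB3 (chr10:6144934-6254644, plus strand), the isozyme that most favours making this activator, had 573.1, 633.9 and 550.5 against 490.2, 459.4 and 369.6. PFKFB3 rose by 0.42 ± 0.12 (SE; limma with the term, adjusted p = 0.0138) and lost the call under library size scaling. PFKFB2, known from heart, stood at 382.1 ± 73.7 and 317.5 ± 60.4 normalized reads and did not pass. Of the summed reads per kb of the PFKFB genes, PFKFB4 held 53.5 ± 5.44% with VIM-AS1 overexpression and 48.5 ± 3.42% with pcDNA3.1 (exact permutation test, two-sided, p = 0.3). PFKFB3 held 33.2 ± 2.50% and 35.1 ± 1.62% (exact permutation test, two-sided, p = 0.4).

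**Figure D3:**
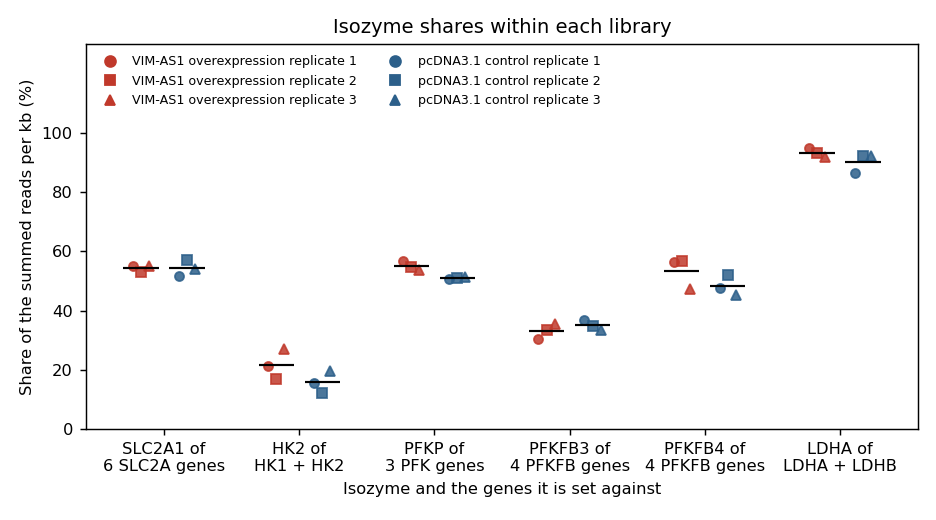
Share (%) of each isozyme in the summed reads per kb of exon of the genes named under it, in each library; symbols are replicates and black bars are group means of 3. PFKP is the isozyme whose groups do not overlap, at 53.8% to 56.7% with VIM-AS1 overexpression and 50.8% to 51.4% with pcDNA3.1.

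Among the lower enzymes PGAM1 moved most. PGAM1, the brain-type phosphoglycerate mutase that is found in most tissues (chr10:97426160-97433441, plus strand), had 13466, 14741 and 11653 normalized reads with VIM-AS1 overexpression and 7423, 8808 and 6464 with pcDNA3.1. The groups were well apart, and PGAM1 rose by 0.82 ± 0.12 (log2 fold change, SE; limma with the term, adjusted p = 7.16e-05). Its 4 processed pseudogenes in the files summed to 0.0628% of its level, and the near copy PGAM4 had 7 to 32 reads per library. PGK1, which makes the first ATP of the route (chrX:77910739-78129296, plus strand), had 24276, 27409 and 20439 normalized reads against 17492, 20341 and 13790. Its groups touched without overlapping, the lowest overexpression library lying just above the highest control. PGK1 rose by 0.49 ± 0.13 (log2 fold change, SE; limma with the term, adjusted p = 0.0112).

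PKM, which encodes both muscle-type pyruvate kinases by alternative splicing (chr15:72199029-72231822, minus strand), was the most abundant of the 10 genes. It had 66032, 71820 and 43617 normalized reads in overexpression libraries and 52161, 63835 and 34908 in controls. The spread within each group, 14896 and 14553 (SD), exceeded the difference of the means, and PKM did not pass (log2 fold change 0.28 ± 0.16 SE, limma with the term, adjusted p = 0.26), although DESeq2 with the term did call it (adjusted p = 0.0483). The files count whole genes, so the PKM1 and PKM2 splice forms cannot be told apart. LDHA, which makes lactate (chr11:18394388-18408425, plus strand), had 24144, 24182 and 30266 normalized reads against 18187, 18035 and 20724. In contrast to PKM, the third library was the highest of each group, and the groups did not overlap. LDHA rose by 0.46 ± 0.13 (log2 fold change, SE; limma with the term, adjusted p = 0.0148). LDHB, the heart-type subunit, stood at 920.7 ± 328 and 980.1 ± 349 normalized reads and did not pass. LDHA made up 93.3 ± 1.45% of the summed LDHA and LDHB reads per kb with overexpression and 90.3 ± 3.41% in controls (exact permutation test, two-sided, p = 0.3). LDHD, a mitochondrial D-lactate dehydrogenase, fell to 111.1 ± 43.1 normalized reads with VIM-AS1 overexpression, against 192.4 ± 44.4.

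Step by step, summed reads per kb of all matched isozymes were higher in each same-numbered pair at 11 of the 12 steps from uptake to lactate. The exception was glucose phosphate isomerase (GPI), higher in 1 of 3 pairs, with 1550 ± 372 reads per kb in overexpression libraries and 1486 ± 410 in controls. Groups did not overlap at hexokinase, phosphoglycerate kinase, phosphoglycerate mutase and lactate dehydrogenase (p = 0.1 for each, two-sided, by the exact permutation test, its minimum here). These totals are made up mainly of HK1, HK2, PGK1, PGAM1 and LDHA. They therefore repeat the values of those genes and add no separate support. Of all single genes tested, 9.5% had every overexpression library above every control. The largest summed difference was that of phosphoglycerate mutase, 5209 ± 602 against 2963 ± 459 reads per kb, a fold of 1.76. Hexokinase had the lowest summed level of the 12 steps, 771.1 ± 66.1 against 526.0 ± 92.8, and GAPDH the highest, 33064 ± 7752 against 30235 ± 7512, a fold of 1.09. Levels per kb divide by all annotated exon bases, 8571 for PKM, and so are lower for genes with long minor transcripts. For ALDOA 42.3% of exon bases are also exon of AC093512.2 on the same strand, and how reads there were counted is not given in the sources used here. ALDOA stood at 338.3 ± 128 and 397.4 ± 109 normalized reads.

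**Figure D4:**
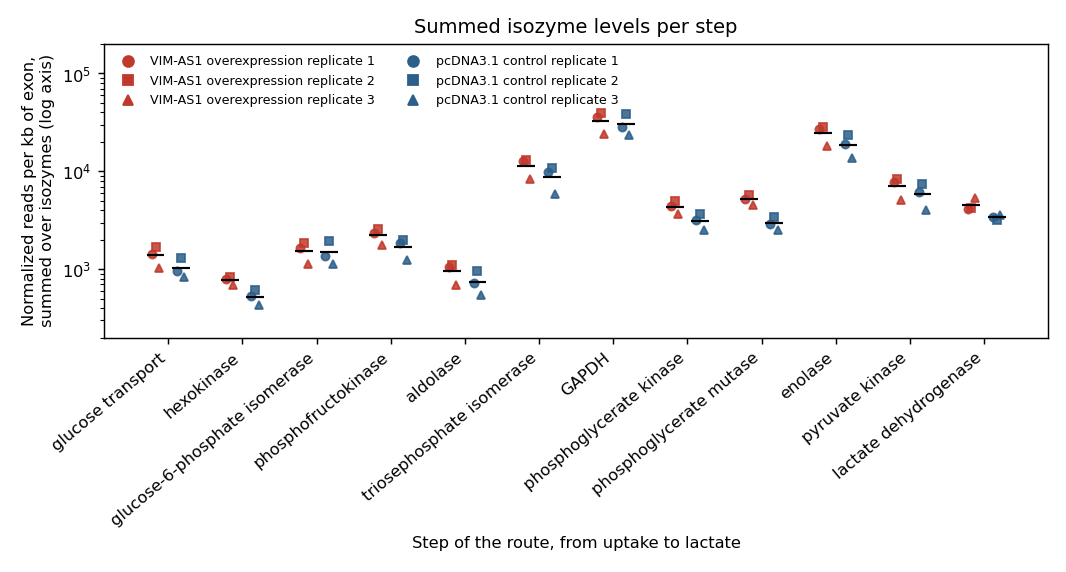
Normalized reads per kb of exon, summed over the isozymes of each step (log axis), in each library from glucose transport to lactate dehydrogenase; symbols are replicates and black bars group means of 3. The 4 steps without overlap between groups are hexokinase, phosphoglycerate kinase, phosphoglycerate mutase and lactate dehydrogenase.

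The rest of the route moved less uniformly. Of 33 further transporters and glycolytic enzymes 28 were matched and 25 tested, of which 5 rose (SLC2A6, SLC2A8, PFKL, ALDOC and TPI1), 5 fell (SLC2A4, SLC2A13, ENO3 and LDHD among them) and 15 did not pass. TPI1, the triose isomerase, rose by 0.39 ± 0.13 on the log2 scale (adjusted p = 0.0468, limma with the term), and ALDOC, the brain-type aldolase, by 0.44 ± 0.11. ENO3, the muscle-type enolase, fell to 3061 ± 656 normalized reads with VIM-AS1 overexpression, against 3922 ± 950. GAPDH (98564 ± 23110 against 90129 ± 22395), ENO1 (125597 ± 28561 against 92995 ± 24998) and ENO2 did not pass. ENO1, the main enolase, had a log2 fold change of 0.44 ± 0.19, and was called with the replicate block (limma adjusted p = 0.0110) and by edgeR with the term (adjusted p = 0.0239). Of the 25, 20% rose and 20% fell, against 11.5% and 7.94% of all tested genes. Of genes with a mean of at least 100, 23.0% rose. The median log2 fold change of the 25 was 0.09, and 0.50 for the 10 genes. With the replicate block 6 of the 25 were called higher and 5 lower, and by group alone none.

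Beyond pyruvate, 3 of 19 genes of pyruvate and lactate handling rose, none fell and 16 did not pass, with a median of 0.02. The share that rose, 15.8%, lay between the 11.5% of all tested genes and the 23.0% of those with a mean of at least 100. The lactate exporter SLC16A3 (MCT4) had 8298, 10106 and 5879 normalized reads against 6569, 5777 and 3415, and rose by 0.64 ± 0.11 (limma with the term, adjusted p = 0.000564). SLC16A1 (MCT1) rose by 0.54 ± 0.11 and the pyruvate dehydrogenase subunit DLAT by 0.66 ± 0.11. PDK1, a kinase that restrains pyruvate dehydrogenase, stood at 138.6 ± 50.1 and 133.3 ± 36.5 normalized reads and did not pass. Of 11 pentose phosphate genes PRPS1, RPIA and PGD rose (27.3%), none fell and 8 did not pass. Of 16 tested genes of gluconeogenesis and glycogen 6 rose (37.5%), none fell and 10 did not pass, with a median of 0.32. These 6 included the glycogen genes PGM1 (0.69 ± 0.12), GYS1 (0.67 ± 0.12) and PYGB (0.58 ± 0.10), and the first of these did not overlap between groups. In these lists of 11 and 16 genes the shares that rose were above both 11.5% and 23.0%. Of 12 hexosamine and side branch genes 1 rose (8.33%), the sorbitol dehydrogenase SORD, with 1020 ± 51.1 against 579.4 ± 26.1 normalized reads. With the replicate block 3 of the 12 were called higher, GNPNAT1 and UAP1 being added. Over these lists and the regulators together 24 of 102 tested genes rose, 23.5%, and 7 fell, 6.86%, near the 23.0% of abundant genes that rose and the 7.94% of all tested genes that fell. With VIM-AS1 replicate 3 left out 1 of the 102 rose (288 genes called in all, either direction), with control replicate 3 left out 4 (618 genes), and with VIM-AS1 replicate 2 left out 13 (2591 genes). With the replicate block 33 were called higher and 11 lower.

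Among 19 regulators of these genes 6 rose (31.6%), 2 fell (10.5%) and 11 did not pass. Of all tested genes 11.5% rose and 7.94% fell, and 23.0% of those with a mean of at least 100 rose. EPAS1, which encodes HIF-2α, had 1378, 1341 and 1400 normalized reads with VIM-AS1 overexpression and 828.8, 882.1 and 718.0 with pcDNA3.1, and rose by 0.77 ± 0.11 (limma with the term, adjusted p = 5.76e-05). HIF1A stood at 323.2 ± 192 and 232.5 ± 158 and did not pass with the term (limma adjusted p = 0.065), although it was called with the replicate block (limma adjusted p = 0.00512, log2 fold change 0.58). MYC did not pass, at 5182 ± 284 and 5605 ± 347. MLXIPL, which encodes the glucose-sensing factor ChREBP, fell to 362.5 ± 78.6 normalized reads, against 1048 ± 166 in controls. TXNIP, an inhibitor of glucose uptake and a ChREBP and MondoA target, fell to 1318 ± 83.9, against 2757 ± 77.6. Both had groups that did not overlap, with log2 fold changes of -1.54 ± 0.12 and -1.07 ± 0.10 in limma with the term, and neither passed by group alone (adjusted p = 0.058 and 0.063). The kinase gene MTOR rose by 0.62 ± 0.10.

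**Figure D5:**
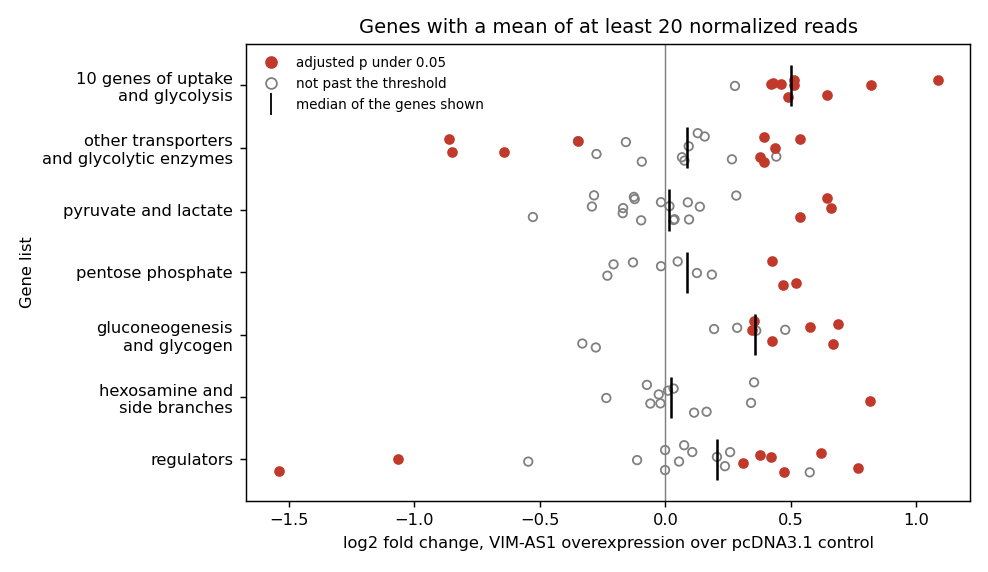
Log2 fold change (VIM-AS1 overexpression over pcDNA3.1 control, limma with the third-library term) of genes with a mean of at least 20 normalized reads, by list; filled points passed an adjusted p of 0.05, open points did not, and black bars are medians of the points shown. The 10 genes of uptake and glycolysis lie from 0.28 to 1.08, while the regulators reach down to -1.54 for MLXIPL.

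Across the 6 libraries the genes most like HK2 among 9757 with a mean of at least 100 were GLYR1, MAP4K4, ALDH5A1, UBE3C and SPAG5, with Pearson r of log2 values from 0.994 to 0.998. These points share the contrast and the library scaling, and no more is read from them. Among the other 9 genes LDHA was closest to HK2 (r = 0.94) and PKM farthest (r = 0.21).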

How the data were processed

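The authors deposited 1 table per library with a signal per gene, namely read counts divided by 1 factor per library. Reads were handled with fastp, HISAT2 (hg38) and featureCounts, per the submitters' processing notes, with no versions. No source used here names the annotation, strand setting or normalizing step. All 25969 values of each library came out as whole reads (tolerance 0.01 read), and the factors equalled DESeq2's median-of-ratios size factors. Per the labels, library input was 1.3 µg of RNA.

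The 20927 genes whose mean value reached 1 were tested two-sided with limma 3.58.1 (R 4.3.3) with an intensity trend on log2(value + 1), a scale that understates changes of low genes. Alternatives were TMM and library size scaling, other filters and pseudocounts, edgeR 4.0.16, DESeq2 1.42.0 and voom on recovered reads, a GC and length correction (splines with 5 degrees of freedom), a replicate block and each library left out. Same-numbered libraries deviated together from their group means (Pearson r 0.32, 0.72 and 0.84 over 13175 genes whose mean reached 20). The block takes the numbers as pairs. Because the third libraries stood apart in both groups, such deviations make the first and second libraries correlate across groups whatever their numbers. VIM-AS1 replicate 1 went more with control replicate 2 (0.42) than with control replicate 1. VIM-AS1 replicate 2 with control replicate 1 gave 0.33. These r therefore cannot show that the first and second libraries are pairs, and the labels state no pairing.

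The genes and lists were chosen with earlier results of these data known. Named genes were the 10, their isozymes with a mean of at least 20, up to 3 called genes per list by size, and the 5 genes most like the member that changed most; any further gene was picked with its values known. Some genes are not reported here. Counting error alone allows 3 reads where a gene has 0, or 2.37 to 3.67 normalized reads.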

Additional observations from a re-analysis of the deposited data

How the results depend on the processing

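Over 17 settings of the fit with the third-library term (main, 10 alternatives and 6 left-out libraries) all 10 genes kept a positive log2 fold change, HK2 passed in 17 of 17, PFKFB4 and PGAM1 in 16, and PKM in 1. In that fit the number of the 10 called higher was 5 at an adjusted p under 0.01, 3 in the first and second libraries alone, and 1 to 9 with a library left out, with 0 called lower throughout. All genes called numbered 1101 in the first and second libraries alone and 288 to 4493 with a library left out, against 4065. Members of the 6 lists called higher numbered 7 in the first and second libraries alone and 1 to 29 with a library left out, against 24, and those called lower 2, 12 under library size scaling and 2 to 12 with a library left out, against 7. By group alone 5 genes were called, with 28 under library size scaling, 17 without the filter, 353 by DESeq2, 2245 after GC and length correction, 5571 with the replicate block, 5911 with the block and that correction, and 2 to 41 with a library left out. Of the 10 genes, 0 by group alone, library size scaling called 1, DESeq2 2, the GC and length correction 4 and the replicate block 9, also with the correction. List members called by group alone, 0 in either direction, were 1 lower under library size scaling, 1 lower without the filter, 1 higher and 2 lower by DESeq2, 15 higher and 4 lower after the correction, 33 higher and 11 lower with the replicate block, 36 higher and 7 lower with both, and 0 to 1 lower with a library left out. Signs turned for genes that were not called: LDHB (0.041) and LDHC (0.0055) after GC and length correction, in both fits and with the block. With a library left out, by group alone, values ran from -0.11 to 0.28 for GPI, -0.0029 to 0.24 for PFKM, -0.51 to 0.082 for ALDOA, -0.031 to 0.33 for GAPDH, -0.12 to 0.32 for ENO2, -0.36 to 0.18 for LDHB and -0.34 to 0.11 for LDHC. With the term they ran from -0.087 to 0.20 for GPI, -0.0076 to 0.24 for GAPDH, -0.46 to 0.27 for LDHB and -0.37 to 0.14 for LDHC. With a library left out, isozyme share differences ran from -1.21 to 1.45 points for SLC2A1, 3.34 to 8.43 for HK2, 3.13 to 4.58 for PFKP, -3.07 to -0.589 for PFKFB3, 1.05 to 4.05 for LDHA, and were at least 3.42 for PFKFB4. Step total differences (log2) turned sign for glucose phosphate isomerase (-0.11 to 0.28) and GAPDH (-0.031 to 0.33), and ran from 0.035 to 0.50 for pyruvate kinase, 0.12 to 0.61 for triosephosphate isomerase and 0.71 to 0.93 for phosphoglycerate mutase. On the recovered reads edgeR called 4 genes by group alone and 4199 with the term. With replicate 3 of either group left out, the remaining replicate 3 is absorbed by the term, so the comparison rests on the other libraries. The deposited scaling equals median-of-ratios, which was therefore not run apart. The causes were not tested. With 3 libraries a group, exact tests cannot go under 0.1, and whole-gene counts do not resolve splice forms.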
